A study of Mus musculus with 6 samples.

Results

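The genes described here are 44 genes of mitosis: the mitotic cyclins and kinases, the spindle checkpoint, kinetochore, spindle, condensin and cytokinesis genes, with Mki67 and Top2a as markers of dividing cells. They were chosen by gene symbol from a fixed list, with earlier results of these data known. All 44 are among the 24054 gene rows of the deposited table. The table holds bulk RNA sequencing of lungs from 6 female SCID mice, 3 in each of 2 groups, of an age that the labels do not give. All 6 mice received extracellular vesicles (EVs, membrane particles shed by cells) carrying CD9, CD63 and CD81 by tail vein. The labelled EVs came from cultured neural progenitors of the E15.5 mouse neural tube, either wild type (WT EV) or without Tsc1 (Tsc1-null EV), a brake on the growth kinase mTORC1; how Tsc1 was deleted is not given in the sources used here. After 48 h every mouse, in both groups, was given rat ELT3 cells intravenously, and lungs were taken 72 h after that. ELT3 is an established line from a rat uterine leiomyoma that lacks Tsc2, and it stands in for the cells of lymphangioleiomyomatosis, a lung disease. The question is how the lung differs when the EVs come from Tsc1-null and not wild-type progenitors. Lungs that got no EVs or no ELT3 cells were not analysed here. SCID mice lack mature B and T cells, and the lungs were whole tissue, so the values are a mixture over lung, blood and injected cells. Rat and mouse reads are not separated in these values.

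Most cells of an adult lung are at rest, and transcripts of mitosis come from the small share of cells that divide. These genes are switched on together late in the cell cycle: cyclin B and CDK1 start mitosis, Aurora and Polo kinases build the spindle, and the anaphase-promoting complex then destroys cyclin B and securin so that chromosomes separate. Their promoters are known targets of the MuvB complex, which with B-MYB and FOXM1 acts through the cell cycle homology region (CHR, TTTGAA or TTCGAA), and of NF-Y, which binds the CCAAT box.

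The promoters of the genes were compared for these 2 motifs. RefSeq windows (build GRCm38.p6, from 250 bases before to 50 bases after an annotated start) were found for 35 of the 44 genes, in 37 windows, and not for Ccna2, Cdc25c, Foxm1, Aurkb, Incenp, Spc24, Tpx2, Kif20a and Smc4. On either strand, TTTGAA or TTCGAA was in 30 of 37 windows (81.1%), against 19.2% of all 32851 windows. CCAAT was in 29 of 37 (78.4%), against 37.4% of all windows. At least 1 of each was in 27 of 37 windows (73.0%), against 7.52% of all windows. In 16 of 37 windows (43.2%) a CCAAT began 20 to 40 bases before a CHR, a spacing chosen after the positions were seen, against 0.968% of all windows. Birc5, Mad2l1, Nuf2, Nusap1 and Pttg1 held neither motif, which says only that these letters are not in this window. A match is a description and not a measured binding site. The genes were listed as genes of mitosis, whose promoters are known targets, so these shares do not bear on the differences between lungs.

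The 250 bases before the start are shown for 4 genes with both motifs, for Ccnb1 with CCAAT alone and for Nuf2 with neither. Capitals mark the CHR (TTTGAA or TTCGAA, or TTCAAA on the other strand) and the CCAAT box (ATTGG on the other strand).
Top2a (chr11:99024190-99024439, minus strand): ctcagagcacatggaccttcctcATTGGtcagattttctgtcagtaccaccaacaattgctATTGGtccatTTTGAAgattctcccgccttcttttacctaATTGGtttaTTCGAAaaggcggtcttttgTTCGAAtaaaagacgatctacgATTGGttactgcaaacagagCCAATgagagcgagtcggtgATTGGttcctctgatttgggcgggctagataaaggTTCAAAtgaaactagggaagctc
Cdk1 (chr10:69352913-69353162, minus strand): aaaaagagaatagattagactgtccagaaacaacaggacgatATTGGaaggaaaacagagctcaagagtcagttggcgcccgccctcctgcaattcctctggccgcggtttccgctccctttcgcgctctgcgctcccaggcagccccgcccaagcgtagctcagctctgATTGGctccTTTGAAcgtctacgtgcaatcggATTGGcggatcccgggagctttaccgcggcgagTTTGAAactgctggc
Cdc20 (chr4:118437344-118437593, minus strand): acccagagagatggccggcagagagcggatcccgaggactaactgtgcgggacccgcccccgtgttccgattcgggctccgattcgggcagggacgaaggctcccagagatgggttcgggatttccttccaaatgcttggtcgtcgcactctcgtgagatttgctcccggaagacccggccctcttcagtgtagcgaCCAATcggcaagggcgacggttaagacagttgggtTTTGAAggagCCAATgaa
Ube2c (chr2:164769679-164769928, plus strand): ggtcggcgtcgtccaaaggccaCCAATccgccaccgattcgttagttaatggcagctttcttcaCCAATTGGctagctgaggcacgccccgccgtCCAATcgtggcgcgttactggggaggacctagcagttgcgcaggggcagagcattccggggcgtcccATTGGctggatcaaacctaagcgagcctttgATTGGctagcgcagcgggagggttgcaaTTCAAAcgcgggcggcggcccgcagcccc
Ccnb1 (chr13:100786487-100786736, minus strand): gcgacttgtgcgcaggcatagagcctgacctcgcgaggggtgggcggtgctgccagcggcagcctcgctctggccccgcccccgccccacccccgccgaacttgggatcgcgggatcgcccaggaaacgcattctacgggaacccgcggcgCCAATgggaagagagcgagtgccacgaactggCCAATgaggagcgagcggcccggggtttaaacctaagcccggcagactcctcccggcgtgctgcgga
Nuf2 (chr1:169531465-169531714, minus strand): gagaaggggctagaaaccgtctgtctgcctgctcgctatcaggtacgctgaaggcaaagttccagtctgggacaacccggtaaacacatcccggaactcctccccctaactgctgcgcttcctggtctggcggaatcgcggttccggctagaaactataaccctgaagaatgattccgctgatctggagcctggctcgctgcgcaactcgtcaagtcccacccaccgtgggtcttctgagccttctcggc
Counted back from the start, the last CHR before it began at base -23 in Top2a, -15 in Cdk1, -18 in Cdc20 and -29 in Ube2c. A CCAAT box began at -58, -48, -53 and -57 in the same 4 promoters. These are 1 box each, out of 6, 3, 2 and 6 in the windows of Top2a, Cdk1, Cdc20 and Ube2c. All 4 genes have a CCAAT 20 to 40 bases before a CHR, as only 14 of the 35 genes do, so they do not stand for the rest. In Ccnb1 the 2 CCAAT boxes began at -99 and -67.

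Mitotic transcripts were higher on average in Tsc1-null EV lungs, but no gene of the 44 passed the test, and 1 WT EV lung was as high as the Tsc1-null EV lungs. Values are TMM-normalized, scaled to library size, and a fold change is the difference in mean log2(value + 1), Tsc1-null EV minus WT EV, ± SE. The log2 fold was above 0 for 43 of 44 genes (background 47.3% of 14159 genes tested), with a median of 0.61, where the median over all tested genes was -0.015. It was below 0 for Smc4, at -0.068 ± 0.23. Limma with Benjamini-Hochberg adjustment called 0 of the 43 genes with a mean value of at least 1, as it called 0 (0%) of 14159 genes, with adjusted p from 0.721 to 0.969. Cdc25c, with 1 to 4 reads in each library, was below that level and was not tested. At an unadjusted p under 0.05, limma found 5 of 43 higher (Top2a, Racgap1, Cenpe, Ncapd2 and Ccnb1, background 3.60%) and 0 lower (background 2.97%), and edgeR found 3 and DESeq2 2 of 43 in either direction (backgrounds 6.82% and 6.71%). After adjustment edgeR called 0 of 43 (background 0%), and DESeq2 called 0 of the 34 to which it gave an adjusted p (background 0.09%). In bulk tissue, a different share of dividing cells and a different level of these transcripts in each cell cannot be told apart.

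The genes varied together from lung to lung, and the lungs of the WT EV group were farther apart than those of the Tsc1-null EV group. Each gene was set against its mean over the WT EV lungs, and the median over the 44 genes was taken in each lung. On the log2 scale this median level was 0.64, -0.70 and -0.017 in WT EV replicates 1, 2 and 3. It was 0.54, 0.84 and 0.56 in Tsc1-null EV replicates 1, 2 and 3, so that WT EV replicate 1 lay inside the Tsc1-null EV range. For 39 of 44 genes WT EV replicate 1 was within or above the Tsc1-null EV values (background 80.2%). WT EV replicate 1 was the highest WT EV lung for 43 of 44 genes (background 35.4%), Spc24 being the exception. WT EV replicate 2 was the lowest of all 6 lungs for 35 of 44 (background 23.3%). All 3 Tsc1-null EV lungs were above both WT EV replicates 2 and 3 for 36 of 44 genes (background 13.1%). That count leaves out the WT EV lung in which 43 of these 44 genes were highest, so it is no test of the groups. All 3 Tsc1-null EV lungs were above all 3 WT EV lungs for 5 of 44 (background 6.86%). None of the 44 was lower in all 3 (background 6.22%). For 7 genes (Mki67, Ccna2, Aurkb, Birc5, Cdca8, Ube2c and Ect2) all 3 Tsc1-null EV values lay within the WT EV range (background 12.9%). The SD of log2 values within a group was larger in WT EV for 33 of 44 genes (background 39.8%), with medians of 0.71 in WT EV and 0.29 in lungs given Tsc1-null EVs, where the medians over all tested genes were 0.20 and 0.25.

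**Figure D1:**
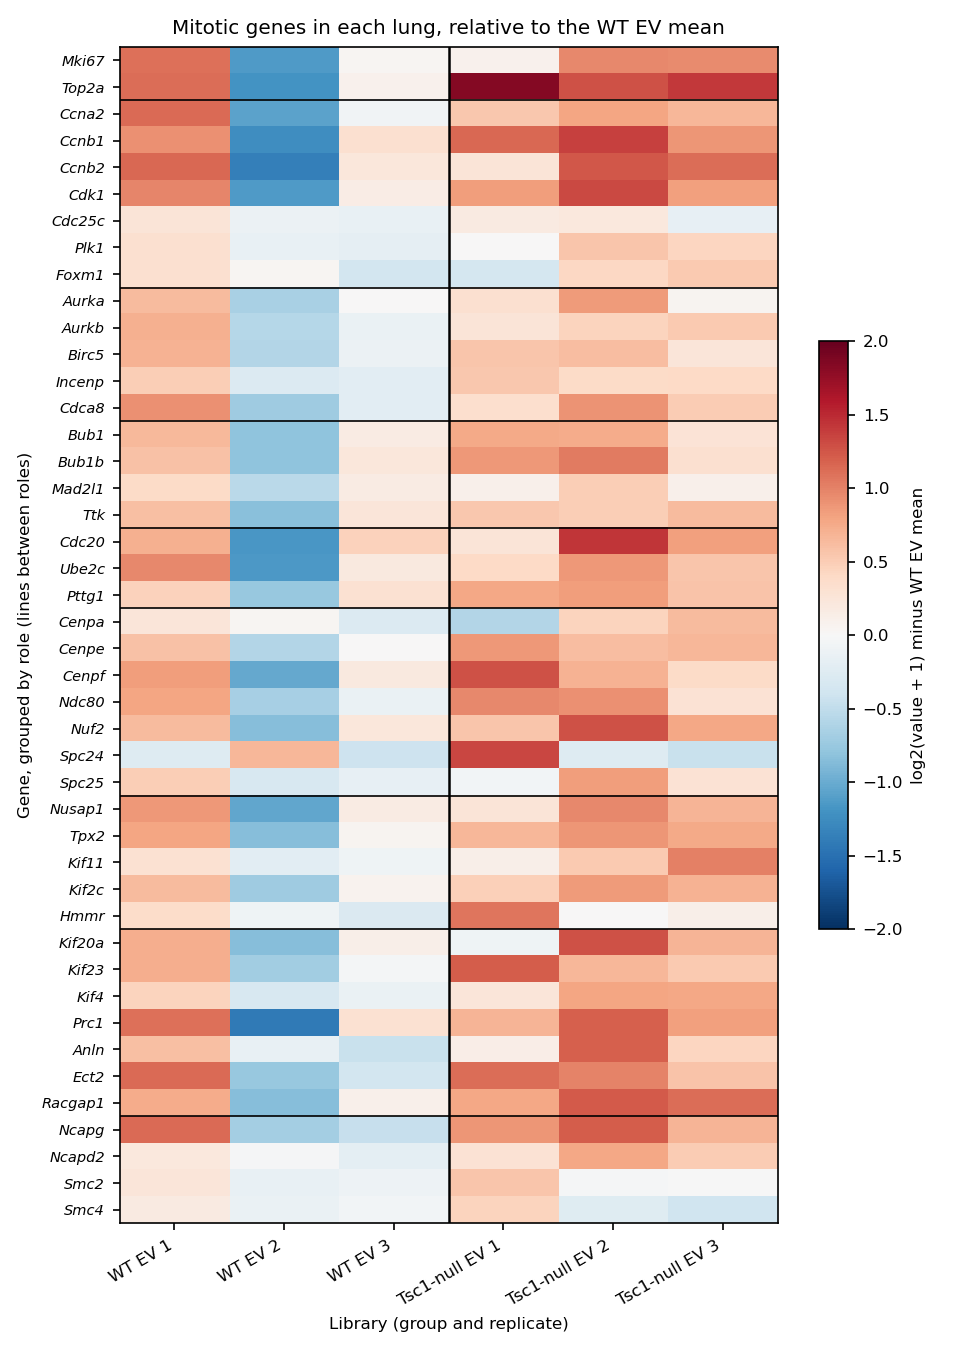
Level of each of the 44 genes (rows, grouped by role) in each of the 6 lungs (columns), as log2(value + 1) minus the mean of the 3 WT EV lungs. WT EV 1 and the 3 Tsc1-null EV lungs are red for most genes, WT EV 2 is blue for most, and Spc24 and Smc4 depart from this pattern.

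Over all genes 2 libraries were least like the rest, replicate 2 of WT EV and replicate 1 of Tsc1-null EV, with median correlations to the others of 0.963 and 0.942, against 0.980 to 0.982 elsewhere. The nuclear RNA Malat1 was at 15673 and 30060 in these 2 libraries and at 1609 to 2819 in the other 4. These 2 libraries also had the fewest reads, 6565182 and 5101413, against 8079325 to 9358820 in the other 4. The groups were compared again with each library left out in turn, and with both of these libraries left out. Without WT EV replicate 2 the median log2 fold of the 44 genes was 0.27, 42 genes stayed above 0, 5 did not overlap (background 10.7%), and 1 of 43 was higher at an unadjusted p under 0.05 (background 1.93%). Without WT EV replicate 1 the median was 0.99 and 44 were above 0. In that fit 36 did not overlap (background 13.1%), the same 36 as counted above against WT EV replicates 2 and 3. At an unadjusted limma p under 0.05, 29 of 43 were higher (background 3.93%). Leaving out both libraries that stood apart gave a median of 0.35, with 40 genes above 0, 13 higher without overlap (background 20.8%) and 9 of 43 higher at an unadjusted p under 0.05 (background 5.19%). Without Tsc1-null EV replicate 1, 13 did not overlap (background 14.9%), and without Tsc1-null EV replicate 3, 9 did not (background 13.2%). Limma called 0 of 43 genes in the fits without WT EV replicate 2, without WT EV replicate 1 and without both libraries that stood apart (backgrounds 0%, 0.00706% and 0.164%). The difference was thus smaller without WT EV replicate 2 and larger without WT EV replicate 1. Limma was also run with a weight estimated for each library, which was 4.19 for WT EV replicate 3 and 3.95 for Tsc1-null EV replicate 2 and lay from 0.213 to 0.933 for the other 4. That fit therefore rests mostly on 1 lung of each group, and Tsc1-null EV replicate 2 was the highest lung for 21 of the 44 genes. In it 11 of 43 genes were called higher (background 4.12%) and 0 lower (background 3.30%). These 11 were Top2a, Cdk1, Plk1, Nuf2, Spc25, Kif20a, Kif4, Anln, Racgap1, Ncapg and Ncapd2.

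**Figure D2:**
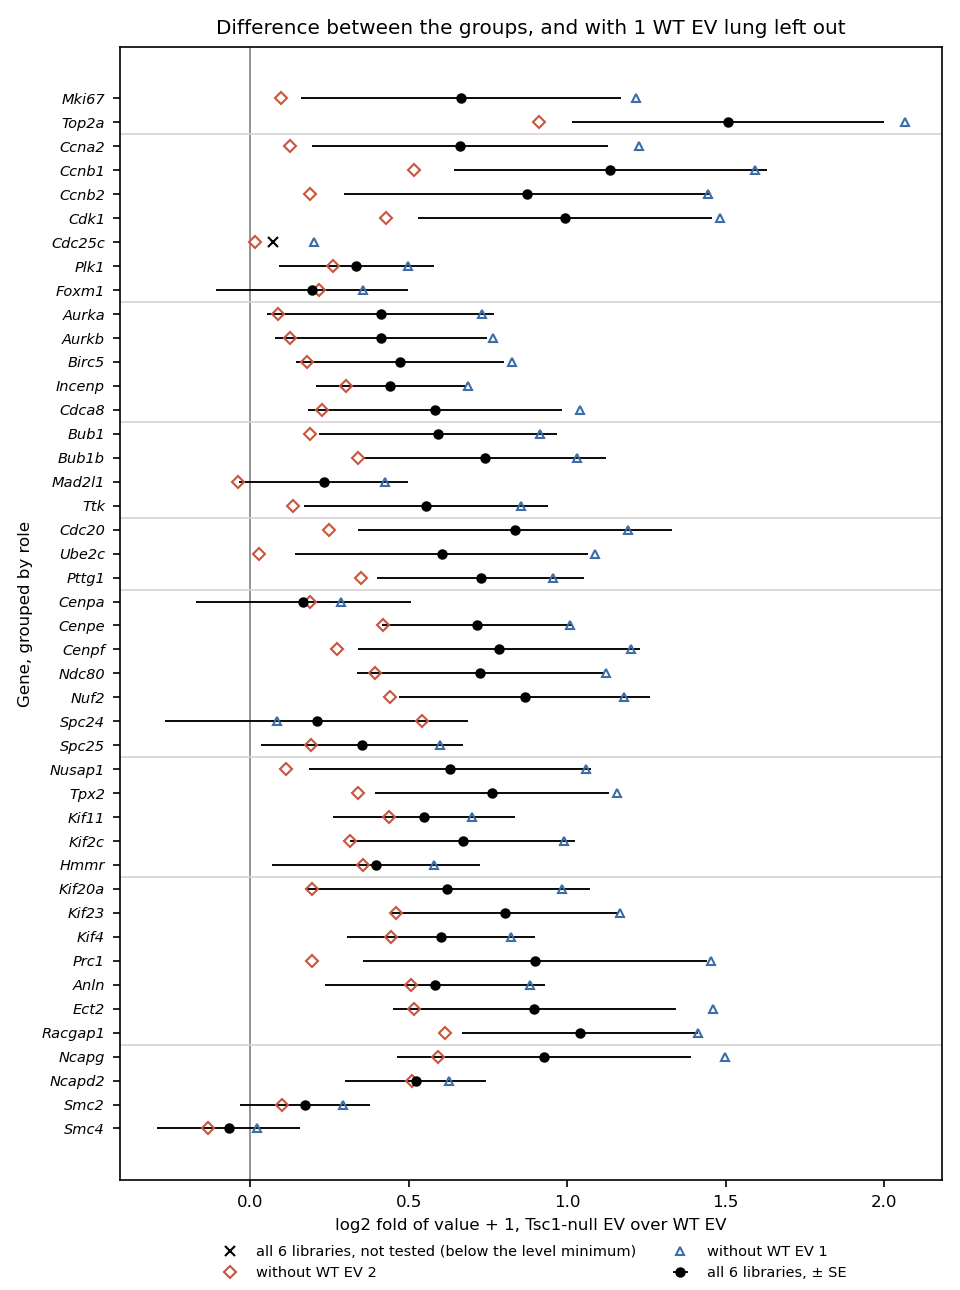
Log2 fold (x axis; Tsc1-null EV minus WT EV, in log2 of value + 1) for each of the 44 genes (y axis), with all 6 lungs (black, ± SE; n = 3 per group), without WT EV 2 (red diamonds) and without WT EV 1 (blue triangles). Most genes lie to the right of 0 in all 3, nearer to 0 without WT EV 2 and farther from it without WT EV 1.

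Of the markers of dividing cells, Top2a, the topoisomerase that untangles sister chromosomes, was at 25.0, 4.26 and 11.7 in WT EV replicates 1, 2 and 3 and at 42.1, 27.9 and 31.2 in Tsc1-null EV replicates 1, 2 and 3. The groups did not overlap, and WT EV replicate 2 was far below the rest. Its mean was 13.7 ± 10.5 in WT EV and 33.7 ± 7.43 in lungs given Tsc1-null EVs (SD, n = 3 each), with a log2 fold of 1.51 ± 0.49, the farthest from 0 of the 44 (limma adjusted p = 0.721). Mki67, which coats mitotic chromosomes and encodes the Ki-67 antigen, was at 38.4, 7.35 and 17.8 in WT EV and at 18.4, 34.7 and 34.5 in Tsc1-null EV lungs. Here WT EV replicate 1 was the highest lung of all and Tsc1-null EV replicate 1 was near WT EV replicate 3, so the markers differed in where they placed Tsc1-null EV replicate 1. The log2 fold of Mki67 was 0.67 ± 0.50, and 0.10 without WT EV replicate 2.

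Of the 7 genes of mitotic entry, all had a log2 fold above 0 (background 47.3%). Limma called 0 of the 6 tested (background 0%). None of the 7 was free of overlap, where 6.86% of all tested genes were higher and 6.22% lower without overlap. Cdk1, the kinase that starts mitosis, was at 15.4, 2.79 and 8.27 in WT EV and at 13.8, 19.8 and 13.7 in Tsc1-null EV lungs (log2 fold 0.99 ± 0.46). Its partner cyclin B1, Ccnb1, was at 4.76, 0.294 and 2.84 in WT EV and at 5.81, 6.90 and 4.64 in Tsc1-null EV lungs (log2 fold 1.14 ± 0.49). The value of 0.294 rests on 2 reads, and Ccnb1 shares 23.4% of its 50-base words with transcripts of other genes, pseudogenes of its own among them. Ccna2, cyclin A2, was at 20.5, 3.67 and 8.39 in WT EV and at 13.2, 16.0 and 14.5 in Tsc1-null EV lungs, all within the WT EV range. Ccnb2, cyclin B2, followed Ccnb1, with 0.882 in WT EV replicate 2 and 4.69 to 10.5 in the other 5 lungs. Without WT EV replicate 2 the log2 fold was 0.43 for Cdk1, 0.52 for Ccnb1, 0.13 for Ccna2 and 0.19 for Ccnb2. Of the exon bases of Ccna2, 12.5% are also exon of Exosc9 on the other strand.

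Plk1, the Polo kinase of the spindle, and Foxm1, a transcription factor of G2/M genes, were closer together over the lungs. Plk1 was at 6.71, 4.56 and 4.44 in WT EV and at 5.21, 8.09 and 7.29 in Tsc1-null EV lungs (log2 fold 0.34 ± 0.24). Foxm1 was at 5.37, 4.26 and 2.96 and at 3.01, 5.82 and 6.30 (log2 fold 0.20 ± 0.30). WT EV replicate 2 was the lowest lung for neither. Cdc25c, the phosphatase that activates CDK1, was at 0.110 to 0.488 over the 6 lungs.

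All 5 genes of the Aurora kinases and the chromosomal passenger complex had a log2 fold above 0 (background 47.3%), from 0.41 to 0.58. None of the 5 was free of overlap (backgrounds 6.86% higher and 6.22% lower). The passenger complex places Aurora B on centromeres and later on the central spindle. Incenp, its scaffold, was at 15.2, 8.52 and 9.01 in WT EV and at 15.8, 14.1 and 14.3 in Tsc1-null EV lungs (log2 fold 0.44 ± 0.23). WT EV replicate 1 stood with the Tsc1-null EV lungs, and replicates 2 and 3 stood together below them. Aurkb, the kinase itself, was at 5.00, 1.47 and 2.34 and at 3.41, 3.99 and 4.31. Birc5 (survivin) was at 7.93, 2.65 and 4.07 and at 7.02, 7.44 and 5.52, and Cdca8 (borealin) had the same order of WT EV lungs. Aurka, the kinase of spindle poles, was at 6.46, 2.06 and 3.82 in WT EV and 5.01, 7.66 and 3.98 in lungs given Tsc1-null EVs. Per kilobase of exon the complex was unequal, at mean values of 2.96 for Incenp, 1.70 for Birc5, 1.16 for Aurkb and 0.898 for Cdca8.

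The spindle checkpoint genes hold anaphase back until each chromosome is attached. None of the 4 was free of overlap between the groups (backgrounds 6.86% higher and 6.22% lower). Bub1b, which encodes the checkpoint protein BUBR1, was at 3.90, 0.882 and 2.84 in WT EV and at 5.01, 5.71 and 3.09 in Tsc1-null EV lungs (log2 fold 0.74 ± 0.38). Mad2l1, which encodes MAD2, had the log2 fold nearest to 0 of the 4, with values of 13.2, 6.47 and 11.1 in WT EV and of 10.6, 14.2 and 10.7 in Tsc1-null EV lungs. Its log2 fold was 0.23 ± 0.27 and turned to -0.038 without WT EV replicate 2. Bub1 had a log2 fold of 0.59 ± 0.38. Ttk, the checkpoint kinase MPS1, had 0 reads in WT EV replicate 2, which allows a value of up to 0.441 (3 reads, counting error alone), and was at 1.11 to 1.77 in the other lungs.

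Of the 3 genes of anaphase onset, 1 was higher without overlap (background 6.86%), Pttg1 (securin, the guard of separase). Pttg1 was at 5.73, 1.91 and 5.06 in WT EV and at 7.42, 7.76 and 6.30 in Tsc1-null EV lungs. Its log2 fold was 0.73 ± 0.33 (limma adjusted p = 0.721). The gap between its groups was small, from 5.73 to 6.30. Ube2c, the ubiquitin-conjugating enzyme of the anaphase-promoting complex, was at 19.3, 3.67 and 10.9 in WT EV and at 12.6, 18.0 and 14.3 in Tsc1-null EV lungs. Its log2 fold was 0.60 ± 0.46 with all lungs and 0.028 without WT EV replicate 2. Cdc20, the activator of that complex, was at 10.9, 2.20 and 8.88 and at 7.62, 18.4 and 11.7, with Tsc1-null EV replicate 2 the highest and replicate 1 below WT EV replicate 3. Of the 50-base words of Cdc20, 10.4% occur in other transcripts. Ube2c and Tnnc2 lie on opposite strands, and 22.8% of the exon bases of Ube2c are also exon of the other strand, so reads of the pair cannot be assigned with certainty where strand was not used.

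Among the 7 centromere and kinetochore genes, 1 was higher without overlap (background 6.86%), Cenpe, a kinesin that carries chromosomes to the spindle equator. It was at 7.93, 2.94 and 4.94 in WT EV and at 9.82, 8.09 and 8.40 in Tsc1-null EV lungs (log2 fold 0.72 ± 0.30, limma adjusted p = 0.721). Its lowest Tsc1-null EV lung was only just above WT EV replicate 1. Cenpf, a large kinetochore protein, was at 12.7, 2.79 and 7.77 and at 17.6, 11.4 and 9.06 (log2 fold 0.79 ± 0.45, and 0.029 without both libraries that stood apart). Cenpa, the histone that marks centromeres, did not follow the pattern, at 5.37, 4.56 and 3.45 in WT EV and at 2.61, 6.36 and 7.40 in Tsc1-null EV lungs. Tsc1-null EV replicate 1 was the lowest lung for Cenpa.

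The 4 subunits of the NDC80 complex, which ties microtubules to the kinetochore, fell into 2 patterns. Nuf2 was at 3.42, 0.588 and 2.34 in WT EV and at 3.21, 5.93 and 3.87 in Tsc1-null EV lungs (log2 fold 0.87 ± 0.40). Ndc80 was at 4.15, 0.882 and 1.73 and at 4.81, 4.64 and 2.65, and Spc25 at 4.88, 2.35 and 2.71 and at 3.01, 6.47 and 4.09. In all of these WT EV replicate 2 was the lowest lung.

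Spc24, in contrast, was at 8.66, 17.2 and 7.65 in WT EV and at 28.1, 8.63 and 7.40 in Tsc1-null EV lungs. Its highest lungs were replicate 2 of WT EV and replicate 1 of Tsc1-null EV, the 2 libraries that also had the highest Malat1. Spc24 was the only one of the 44 genes with these 2 libraries above the other 4 (background 12.4%). Its log2 fold was 0.21 ± 0.48, turned to -0.35 without Tsc1-null EV replicate 1 and was 0.54 without WT EV replicate 2. Per kilobase of exon, Spc24 was at a mean of 5.03, against 1.23 for Spc25, 0.509 for Nuf2 and 0.484 for Ndc80. Of its 50-base words 3.58% occur in transcripts of other genes, and no exon of another gene overlaps it in GENCODE M21. The part of these 2 libraries' RNA in the level of Spc24 was not tested.

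**Figure D3:**
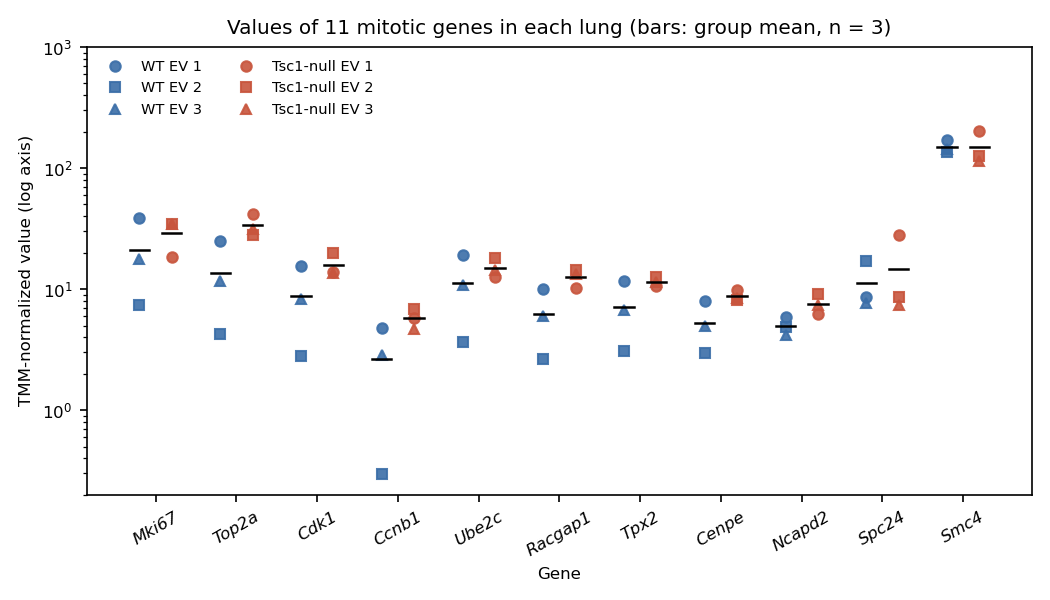
TMM-normalized values (y axis, log scale) of 11 of the genes (x axis) in each of the 3 WT EV lungs (blue) and the 3 Tsc1-null EV lungs (red), with bars at the group means. WT EV 2 (blue squares) is the lowest lung for Mki67, Top2a, Cdk1, Ccnb1, Ube2c, Racgap1, Tpx2 and Cenpe, while Spc24 is highest in Tsc1-null EV 1 and WT EV 2.

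All 5 genes of spindle assembly had a log2 fold above 0 (background 47.3%). None of the 5 was free of overlap (backgrounds 6.86% higher and 6.22% lower). Tpx2, which activates Aurora A and seeds microtubules around chromosomes, was at 11.7, 3.09 and 6.66 in WT EV and at 10.6, 12.5 and 11.4 in Tsc1-null EV lungs (log2 fold 0.76 ± 0.37). Its values in the Tsc1-null EV lungs and in WT EV replicate 1 were close together, at 10.6 to 12.5. Kif11, the motor that pushes spindle poles apart, was at 4.03, 2.50 and 2.84 and at 3.41, 4.85 and 7.18. Kif2c, which shortens microtubules at kinetochores, was at 3.05, 0.588 and 1.73 and at 2.61, 3.67 and 3.20. Nusap1, which bundles spindle microtubules, had a log2 fold of 0.63 ± 0.45. Hmmr, a hyaluronan receptor that also sits on spindle poles, was at 10.4 in Tsc1-null EV replicate 1 and at 3.45 to 5.98 in the other 5 lungs.

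The 7 genes of the central spindle and cytokinesis had the highest median log2 fold of any role with more than 2 genes, 0.80, with single genes from 0.58 to 1.04. Racgap1, which with the kinesin Kif23 forms the centralspindlin complex, was at 10.0, 2.65 and 6.05 in WT EV and at 10.2, 14.3 and 13.3 in Tsc1-null EV lungs. The groups did not overlap, although replicate 1 of WT EV and replicate 1 of Tsc1-null EV were nearly equal. Racgap1 had a mean of 6.23 ± 3.68 in WT EV and 12.6 ± 2.13 in lungs given Tsc1-null EVs (SD, n = 3 each; log2 fold 1.04 ± 0.37, limma adjusted p = 0.721). Kif23 was at 9.88, 3.09 and 5.43 and at 14.2, 9.49 and 8.51 (log2 fold 0.80 ± 0.36). Ect2, which centralspindlin recruits to activate RhoA, was at 10.9, 2.20 and 3.21 and at 10.8, 9.81 and 7.07.

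Prc1, which bundles the microtubules of the central spindle, was at 19.0, 2.50 and 10.5 in WT EV and at 13.8, 20.4 and 15.47 in Tsc1-null EV lungs (log2 fold 0.90 ± 0.54). Kif4, a chromosome motor that works with PRC1, was at 2.68, 1.18 and 1.48 and at 2.21, 3.67 and 3.65, and Kif20a, another motor of the central spindle, was at 9.88, 2.65 and 6.17 and at 5.21, 14.9 and 9.50. Anln (anillin, the scaffold of the cleavage ring) was at 12.1, 6.76 and 5.31 and at 8.42, 18.7 and 10.6. In Kif20a, Kif4 and Anln Tsc1-null EV replicate 1 was the lowest lung of its group and lay below WT EV replicate 1. Of the exon bases of Kif20a, Kif4 and Prc1, 29.3%, 15.1% and 11.1% are also exon of a gene on the other strand, so part of their reads cannot be assigned with certainty.

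The condensin genes split between the core ATPases and the other subunits. Condensin compacts chromosomes, Smc2 and Smc4 are its ring-forming ATPases and are shared by condensins I and II, and Ncapg and Ncapd2 belong to condensin I. Ncapd2 was at 5.85, 4.85 and 4.20 in WT EV and at 6.21, 9.17 and 7.40 in Tsc1-null EV lungs, without overlap (log2 fold 0.52 ± 0.22, limma adjusted p = 0.721). In contrast to most of the genes, its WT EV lungs were close together, and its log2 fold of 0.51 without WT EV replicate 2 hardly differed. Ncapg was at 3.54, 0.294 and 0.494 and at 2.81, 3.77 and 2.32 (log2 fold 0.93 ± 0.46), with 2 reads behind the value of 0.294. Of the exon bases of Ncapg 13.4% are also exon of Lcorl on the other strand.

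Smc4 was at 170, 137 and 145 in WT EV and at 204, 126 and 114 in Tsc1-null EV lungs, and Smc2 at 43.3, 33.1 and 34.2 and at 54.3, 35.9 and 36.2. In both genes WT EV replicate 2 was close to replicate 3, unlike in most of the 44, and both were highest in Tsc1-null EV replicate 1. Per kilobase of exon Smc4 was at a mean of 28.6 and Smc2 at 7.21, the highest of the 44 genes, against 1.00 for Ncapd2 and 0.312 for Ncapg. The log2 fold of Smc4 ran from -0.32 to 0.10 with 1 library left out, so it had no settled direction. Apart from Smc2 and Smc4, the genes with a mean value over 20 were Mki67 and Top2a, and 31 of the 44 had a mean under 10.

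Other genes of the same pathways were counted over whole lists, and the genes named from each list are mostly those of the smallest p. None passed limma's test over all genes. Over all tested genes, 47.3% had a log2 fold above 0, 6.86% were higher and 6.22% lower without overlap, and 3.60% were higher and 2.97% lower at an unadjusted p under 0.05. Of 29 other genes of the spindle and cytokinesis, 24 were above 0 in log2 fold (median 0.37), and 1 of 29, Dlgap5, was free of overlap and higher, a share below the 6.86% of all genes. At an unadjusted limma p under 0.05, 4 of the 28 tested were higher (background 3.60%) and 0 lower (background 2.97%). Their median levels were lowest in WT EV replicate 2 and highest in Tsc1-null EV replicate 2, as for the 44 genes, at 0.47, -0.44 and -0.033 in WT EV and at 0.34, 0.62 and 0.27 in Tsc1-null EV lungs. Iqgap3, a scaffold of the cell cortex, was at 3.66, 1.03 and 1.97 and at 3.01, 6.69 and 6.52, Cdca2, a mitotic phosphatase subunit, at 4.51, 0.882 and 1.85 and at 5.81, 4.21 and 5.19, and Cep55, a protein of the midbody, at 2.68, 0.147 and 0.987 and at 4.21, 2.70 and 2.65. The groups overlapped in all of these, and WT EV replicate 2 was the lowest lung in each. Of 35 other genes of the centromere, kinetochore and checkpoint, 22 were above 0, with a median of 0.062, Cenpi, Knstrn and Sgol2 higher without overlap (3 of 35, near the background of 6.86%) and Cenpt lower (1 of 35, background 6.22%). Knstrn, a spindle and kinetochore protein and the only 1 of the list with an unadjusted p under 0.05, was at 5.00, 2.35 and 2.71 and at 6.01, 8.19 and 5.19.

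Of 26 regulators of G2/M, 17 were above 0, with a median of 0.20, E2f7 higher without overlap (1 of 26, background 6.86%) and Mybl2, Lin52, Lin54 and Cdc25b lower (4 of 26, background 6.22%). At an unadjusted p under 0.05, 1 gene was higher (background 3.60%) and 1 lower (background 2.97%). Nek2, a kinase of centrosome separation, was at 14.5, 5.44 and 9.99 in WT EV and at 31.1, 20.1 and 13.0 in Tsc1-null EV lungs (log2 fold 1.04 ± 0.38), with WT EV replicate 1 above Tsc1-null EV replicate 3. Mybl2, which encodes B-MYB, was at 2.07, 3.38 and 1.97 and at 1.40, 0.970 and 1.66, highest in WT EV replicate 2, the lowest lung for most of the 44 genes. Lin52, a MuvB subunit, was at 33.3, 33.2 and 32.8 and at 25.7, 26.7 and 21.9, and Cdc25b, a phosphatase that activates CDK1, was at 19.9, 22.6 and 24.4 and at 13.0, 18.0 and 18.8. The 18 subunits and partners of the anaphase-promoting complex, most of which all cells use, had a median of -0.0080, and the 14 genes of cohesin and the other condensin subunits had one of 0.058. In neither list was a gene free of overlap or at an unadjusted p under 0.05. Ncaph, another non-ATPase subunit of condensin I, was at 8.05, 5.44 and 7.16 and at 8.02, 14.3 and 9.83.

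Of 24 DNA replication genes, which act in the S phase before mitosis, 21 were above 0, with a median of 0.39, 4 of the 23 tested were higher (background 3.60%) and 0 lower (background 2.97%) at an unadjusted p under 0.05, and 9 of 24 were free of overlap and higher (background 6.86%), against 5 of the 44 mitotic genes. Whether the 2 shares differ was not tested. Uhrf1, which keeps DNA methylation through replication, was at 7.32, 2.20 and 4.44 in WT EV and at 9.82, 9.92 and 9.50 in Tsc1-null EV lungs. Of 14 inhibitors of the cell cycle, 6 were above 0 and 8 below. At an unadjusted limma p under 0.05, 1 was higher (background 3.60%) and 1 lower (background 2.97%). Without overlap 1 of 14 was higher, near the background of 6.86%, and 2 of 14 were lower (background 6.22%). Cdkn1a, which encodes the CDK inhibitor p21, did not overlap, at 122, 114 and 128 and at 150, 160 and 217 (log2 fold 0.51 ± 0.17). Rb1, the retinoblastoma protein and 1 of the 2 lower genes, did not overlap either. It was at 41.6, 31.6 and 36.8 and at 29.1, 20.6 and 27.5 (log2 fold -0.50 ± 0.19). Over all genes, limma gave both an adjusted p of 0.721.

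**Figure D4:**
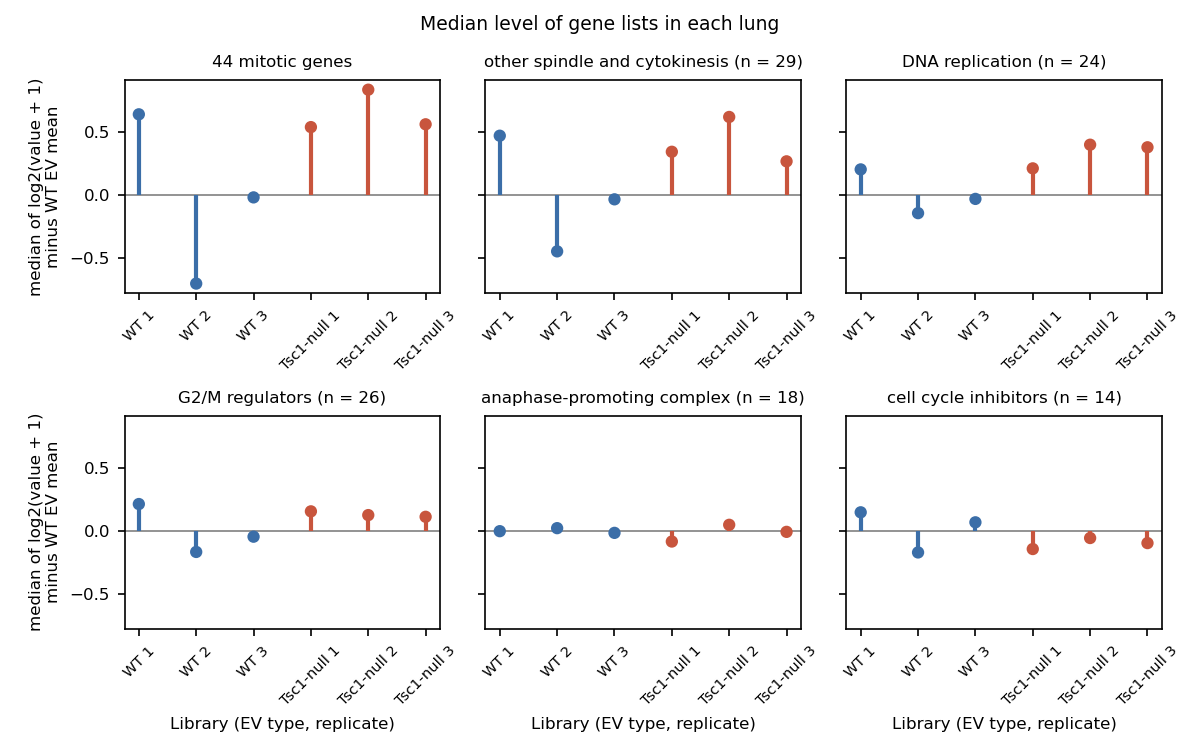
Median over each list of log2(value + 1) minus the WT EV mean (y axis) in each of the 6 lungs (x axis; blue WT EV, red Tsc1-null EV), for the 44 mitotic genes and 5 lists of related genes. The 44 genes and the other spindle and cytokinesis genes are both lowest in WT EV 2 and highest in Tsc1-null EV 2, and the anaphase-promoting complex stays near 0 in all lungs.

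The lungs held the marker genes of lung tissue, with Sftpc, a surfactant protein of alveolar type 2 cells, at 13095 to 29628. Cell type markers that differed between lungs are given here because dividing cells can be of any of these types. Of 7 alveolar macrophage markers, 2 had a log2 fold above 0 and 5 below. Of 8 markers of monocytes and interstitial macrophages, 7 had a log2 fold above 0, 1 was free of overlap and higher (background 6.86%) and none was at 0 in any library. Their median level was 0.25, -0.46 and 0.013 in WT EV and -0.24, 0.57 and 0.60 in Tsc1-null EV lungs, and their summed values ran from 226 to 330 and from 261 to 409. By median level WT EV replicate 2 was the lowest lung for this list, and also for the alveolar type 2 and ciliated lists. The endothelial, fibroblast and smooth muscle lists were instead lowest in Tsc1-null EV replicate 1. Tsc1-null EV replicate 1, high for mitotic genes, was low for the monocyte and macrophage list. Of 8 alveolar type 2 markers 7 were above 0, with median levels of 0.25, -0.18 and -0.14 and of -0.08, 0.75 and 0.40 and sums from 24094 to 31768 and from 21428 to 42765. All 7 ciliated markers were above 0, with summed values of 674 to 934 and 871 to 1628, the highest in Tsc1-null EV replicate 1. The part of these cells in the mitotic genes was not tested.

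Other lists ran the other way or were scarce. All 8 endothelial markers were below 0, with sums of 2789 to 3694 in WT EV and 1836 to 3446 in lungs given Tsc1-null EVs. Also below 0 were 6 of 7 alveolar type 1, all 6 smooth muscle, 5 of 7 natural killer and 4 of 7 fibroblast markers. All 6 mesothelial markers and all 6 heart muscle markers were below 0 as well, and both sums were lowest in Tsc1-null EV replicate 1, at 55.3 and 163, against 300 to 1032 and 386 to 671 in the other lungs. Of 8 erythroid genes 7 were below 0 and Hbb-bs was at 0 in every library, with sums of 5728 to 6972 and 2475 to 4925. Klf1, which marks the dividing erythroid precursors, was at 0 in 4 of the 6 lungs and at up to 0.441 in the others. The 7 B and T cell markers summed to 5.68 to 7.20 and 5.81 to 7.98. The 5 genes known from uterine smooth muscle or leiomyoma, the origin of ELT3 cells, summed to 4.63, 4.12 and 5.68 in WT EV and to 2.81, 3.56 and 6.19 in Tsc1-null EV lungs. Oxtr was at 0 in replicate 2 of WT EV and replicate 1 of Tsc1-null EV, and Pmel in the latter. The part of ELT3 cells in the mitotic genes was not tested.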

How the data were processed

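RNA from the lungs of 6 mice was sequenced. The deposited values are a TMM-normalized signal per gene, per the file headers. The submitters' processing notes name Bowtie2 2.1.0, RSEM 1.2.15, edgeR and the mm10 build, with no roles. Every deposited value was a whole multiple (within 0.001) of 1 read's worth in its library, so reads could be recovered, from 5101413 to 9358820 a library. Groups came from the sample labels, and p-values measure the spread between 3 lungs a group. The analysis used log2(value + 1), genes with a mean of at least 1 (14159 of 24054), limma 3.58.1 in R 4.3.3 with an intensity trend, and Benjamini-Hochberg adjustment over all tested genes at 0.05. The scripts were tested on simulated data. With 3 against 3, an exact permutation test of a single gene cannot go below 0.1.

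Alternatives were pseudocounts of 0.5 and 0.1, other filters and scalings, other limma settings, edgeR 4.0.16 and DESeq2 1.42.0 on the recovered reads, and each library left out. Leaving out both libraries that stand apart was chosen after seeing the data. The genes and lists were chosen with earlier results of these data known. Values in every lung were to be given, in each role, for the gene of the highest mean, that of the smallest p and any called by an alternative, and for up to 3 genes of the smallest p in each related list. Other genes named, Mybl2 among them, were added after their values were seen. Exon lengths and overlaps came from GENCODE M21. Strandedness of counting is not given in the sources used here.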

Additional observations from a re-analysis of the deposited data

How the results depend on the processing

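The median log2 fold of the 44 genes kept its sign under all 18 alternatives, from 0.27 without WT EV replicate 2 to 0.99 without WT EV replicate 1. No gene of the 44 was called under any alternative but limma with library weights, which called 11 of them and 1050 genes in all. Over all genes DESeq2 called 11, leaving out 1 library gave 0 to 2 and leaving out both libraries that stand apart gave 23. The number of the 44 genes higher without overlap was 5, or 3 after quantile normalization, 13 without both libraries (20.8% of all genes), and from 5 to 36 with 1 library left out (36 when WT EV replicate 1 was left out, 13 for Tsc1-null EV replicate 1, 9 for Tsc1-null EV replicate 3, where 13.1%, 14.9% and 13.2% of all genes were). The number lower without overlap was 1 without both libraries and 0 to 1 with 1 library left out. Shares of all genes were not counted for these lower numbers or for the 3 after quantile normalization, so they have no background here. The 36 without WT EV replicate 1 are the genes whose 3 Tsc1-null EV values all lie above WT EV replicates 2 and 3. WT EV replicate 1 was the highest WT EV lung for 43 of 44 genes (background 35.4%). For the other changes, apart from the smaller number of lungs to separate, the cause was not tested.

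Of 432 comparisons of 24 named genes over 18 alternatives, 415 kept direction and did not pass the threshold. Another 11 passed it under library weights, and 6 reversed. The 415 include genes that got no adjusted p under the stricter filter on level or under DESeq2. With 1 library left out Spc24 ran from -0.35 (Tsc1-null EV replicate 1 left out) to 0.54, Mad2l1 from -0.038 (WT EV replicate 2 left out) to 0.42, and Smc4 from -0.32 to 0.097 (Tsc1-null EV replicate 3 left out; 0.022 for Tsc1-null EV replicate 2 and for WT EV replicate 1). Spc24 was at -0.024 without both libraries. No paired analysis was possible because the labels give the groups no shared replicate numbers. Depth limits the low genes: 11 of the 44 had under 10 reads in at least 1 library.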
